A study of Mus musculus with 6 samples.

Results

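Messenger RNA of the Sprouty and Spred genes was examined in 6 mammary tumors grown from 4T1 cells, a mouse mammary carcinoma line. The members were Spry1, Spry2, Spry4, Spred1, Spred2 and Spred3, and all 6 had a probe set of their own among the 19937 genes that could be named on the array. Where a gene had several probe sets, the one with the highest mean signal over the 6 tumors stood for it, which concerned Spred2 alone. Each Balb/C mouse received 750000 cells in mammary gland 4, and oral dosing began on day 7 and was repeated daily for 14 days. The control mice received water (3 tumors) and the treated mice received TKI258 at 40 mg/kg (3 tumors). TKI258, also called dovitinib, is an inhibitor of receptor tyrosine kinases, including receptors of fibroblast, vascular endothelial and platelet-derived growth factors. Labels describe the tumors as individual and as biological replicates, and give no genetic change in the host mice. RNA came from whole tumors, so tumor cells, vessels, stroma and immune cells all contributed. A lower signal can come from fewer cells of a type or from less RNA per cell, and these cannot be told apart. The comparison asked how the inhibitor-treated tumors differed in transcript level from the water-treated tumors.

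Sprouty and Spred proteins are inhibitors of signaling from receptor tyrosine kinases through Ras and the kinase ERK. Active receptors pass their signal through adaptor proteins to Ras, then to Raf, MEK and ERK kinases, and ERK activity in turn raises transcription of several Sprouty and Spred genes, which closes a negative feedback loop. Sprouty proteins act near adaptors and Raf, while Spred proteins bring the Ras-inactivating protein neurofibromin to the membrane. In epithelium and vessels this family is known for limiting the response to fibroblast growth factors during branching and sprouting.

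The group means of the members did not all differ in the same direction. Spry4 had a lower mean in TKI258 tumors, by 0.61 on the log2 scale, and Spry1 had a higher mean, by 1.00. Spry2, Spred1 and Spred3 had slightly lower means, between -0.27 and -0.17, and Spred2 was level (0.00). No member passed the limma test adjusted over all probe sets (adjusted p at least 0.591), and neither did any other of the 34760 probe sets (0 called, 0%). At an unadjusted limma p under 0.05 there were 2803 of them. The only member with an unadjusted limma p under 0.05 was Spry4, which was lower. Over all genes 3.35% met that rule in the lower direction and 3.79% in the higher one, where 0 members met it. The median difference of the 6 members was -0.18, against 0.02 for all 19937 genes, and 5 of the 6 had a lower mean with TKI258, as had 43.4% of all genes. That median rested on single tumors: it was -0.02 without TKI258 replicate 3, -0.10 without water replicate 2 and -0.30 without TKI258 replicate 2, and it was -0.07 with arrays weighted by their quality and -0.01 without both tumors highest in B cell markers (water replicate 1 and TKI258 replicate 3).

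**Figure D1:**
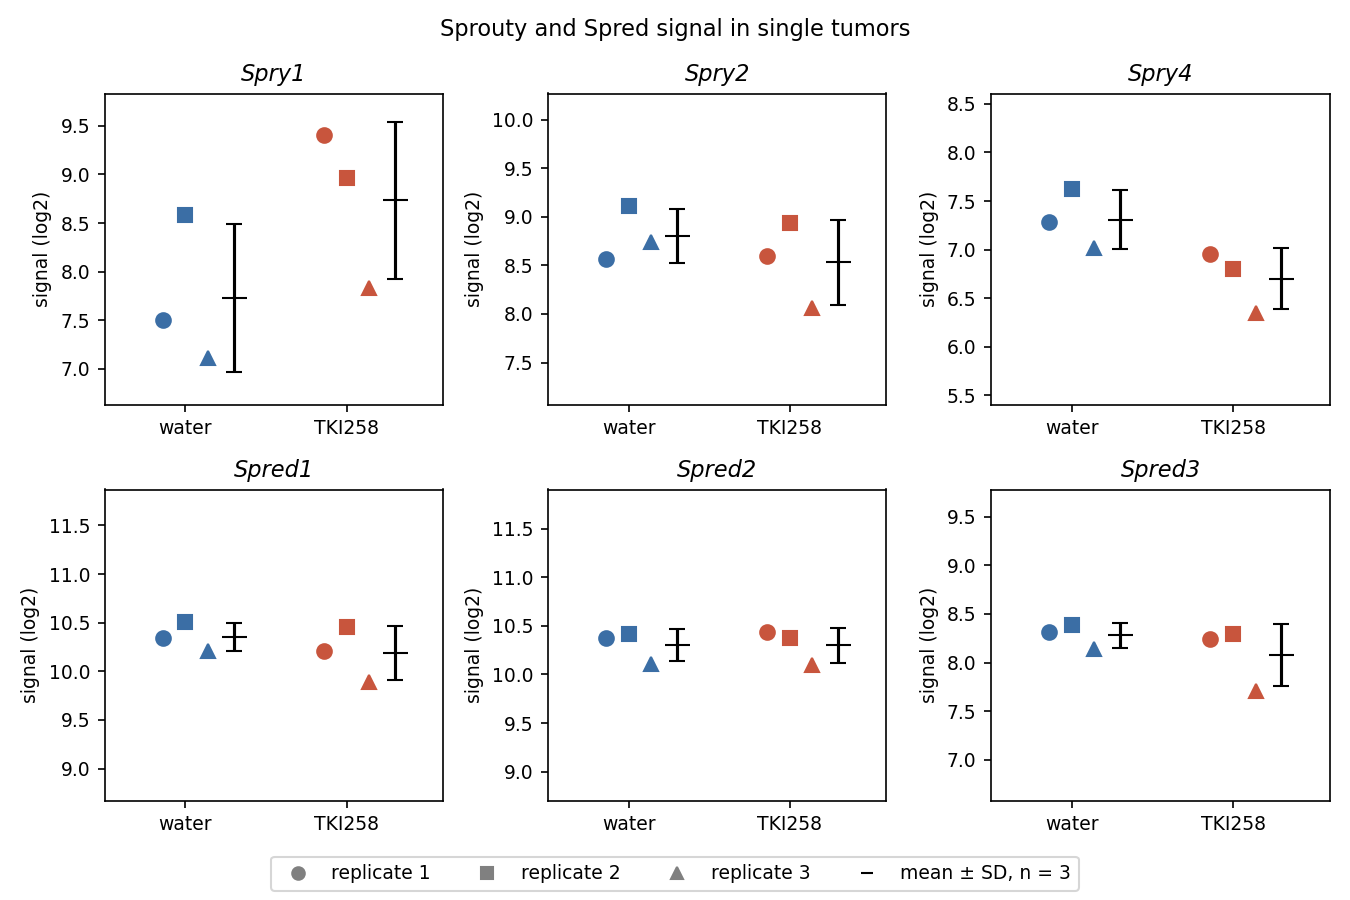
Log2 signal (vertical axes, each spanning the same range around the mean of its gene) of 6 Sprouty and Spred genes in 3 water tumors (blue) and 3 TKI258 tumors (red), 1 symbol per tumor, with the mean and SD of each group in black. Spry4 is the member whose groups do not overlap, and Spry1 has the widest spread (SD over the 6 tumors 0.89).

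Among the Sprouty genes, Spry4 encodes an inhibitor of Ras and Raf activation. Its log2 signal (probe set 10458555) was 7.29, 7.62 and 7.02 in water replicates 1, 2 and 3, and 6.95, 6.80 and 6.35 in TKI258 replicates 1, 2 and 3. Every TKI258 tumor lay below every water tumor, although the gap between the nearest tumors, water replicate 3 and TKI258 replicate 1, was smaller than the spread within either group. Group means were 7.31 ± 0.30 and 6.70 ± 0.31 (SD, n = 3). The difference was -0.61 ± 0.21 (SE), with a 95% interval from -1.10 to -0.11, a 1.52-fold lower level (limma unadjusted p = 0.0237, adjusted p = 0.591). An exact two-sided permutation test over the tumors gave p = 0.1, the smallest value that 3 against 3 allows. All TKI258 tumors lay below all water tumors in 6.49% of genes. The Spry4 difference ranged from -0.75 to -0.43 when single tumors were left out, and the unadjusted limma p rose to 0.0523 when water replicate 1 was left out, 0.0736 when water replicate 2 was and 0.0617 when TKI258 replicate 3 was. The Spry4 signal was modest: in TKI258 replicate 3 it lay below the median of all probe sets of that array, and array medians were 6.38 to 6.44.

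Spry1 encodes the Sprouty protein best known for restraining the receptor RET in kidney development. Its signal (probe set 10491721) was 7.50, 8.58 and 7.11 in water replicates 1 to 3 and 9.40, 8.96 and 7.84 in TKI258 replicates 1 to 3. TKI258 replicates 1 and 2 were the highest of the 6 tumors, but TKI258 replicate 3 lay between the water tumors, below water replicate 2. The water tumors averaged 7.73 ± 0.76 and the TKI258 tumors 8.73 ± 0.81 (SD, n = 3), so the spread within a group was almost as large as the difference between groups. The difference was 1.00 ± 0.50 (SE), with a 95% interval from -0.19 to 2.20 (limma unadjusted p = 0.0871, adjusted p = 0.659), and the exact two-sided permutation p was 0.2. The interval holds 0 as well as differences above that of any other member, so the precision with 3 tumors a group was low. Its size rested on single tumors: it was 1.45 without TKI258 replicate 3 and 1.43 without water replicate 2, but 0.67 without TKI258 replicate 1 and 0.69 without water replicate 3. With TKI258 replicate 3 or water replicate 2 left out, Spry1 took the place of Spry4 as the 1 member with an unadjusted limma p under 0.05 (0.0161 and 0.0235, limma adjusted p 0.622 and 0.866). No member had all TKI258 tumors above all water tumors, as 8.66% of genes had.

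Spry2, the most widely studied Sprouty inhibitor and a partner of the ubiquitin ligase CBL, had a signal (probe set 10422227) of 8.56, 9.11 and 8.74 in water tumors and 8.60, 8.93 and 8.07 in TKI258 tumors. TKI258 replicates 1 and 2 lay within the range of the water tumors, and TKI258 replicate 3 alone lay below it. The group means were 8.80 ± 0.28 and 8.53 ± 0.44 (SD, n = 3), and the difference of -0.27 ± 0.24 (SE) had a 95% interval from -0.85 to 0.31 (limma adjusted p = 0.765). The Spry2 difference was -0.03 without TKI258 replicate 3, -0.12 without water replicate 2 and -0.47 without TKI258 replicate 2.

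Because Spry1 and Spry4 differed in opposite directions, their difference was taken within each tumor, a choice made after their values were seen and therefore given without a test. A value formed within 1 array is free of a constant offset between arrays, though not of RMA's own normalization, and shows unequal change of the 2 genes, not which of them changed. Spry1 minus Spry4 was 0.21, 0.96 and 0.09 in water replicates 1 to 3, and 2.45, 2.16 and 1.49 in TKI258 replicates 1 to 3. All 3 TKI258 tumors exceeded all 3 water tumors, including TKI258 replicate 3, the lowest TKI258 tumor for both genes. The means were 0.42 ± 0.47 and 2.03 ± 0.49 (SD, n = 3), a difference of 1.61.

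The sequence before the start of Spry1 is shown because its group means differed most in the family, although that difference did not pass the adjusted test. That of Spry2 is shown because it is the Sprouty gene whose TKI258 tumors mostly stayed within the water range. Each run holds the 250 bases before the annotated start, 5′ to 3′ on the strand of the gene, from RefSeq (GRCm38.p6), at chr3:37639697-37639946 (plus strand) for Spry1 and chr14:105896820-105897069 (minus strand) for Spry2. Capitals would mark CGGAA, the core letters of binding motifs of ETS factors, which are effectors of ERK signaling.

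Spry1: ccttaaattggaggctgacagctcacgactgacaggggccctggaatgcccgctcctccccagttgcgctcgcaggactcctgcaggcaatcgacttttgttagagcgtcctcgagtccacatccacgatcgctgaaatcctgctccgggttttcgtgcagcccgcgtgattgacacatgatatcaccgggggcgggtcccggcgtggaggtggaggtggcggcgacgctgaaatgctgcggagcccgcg

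Spry2: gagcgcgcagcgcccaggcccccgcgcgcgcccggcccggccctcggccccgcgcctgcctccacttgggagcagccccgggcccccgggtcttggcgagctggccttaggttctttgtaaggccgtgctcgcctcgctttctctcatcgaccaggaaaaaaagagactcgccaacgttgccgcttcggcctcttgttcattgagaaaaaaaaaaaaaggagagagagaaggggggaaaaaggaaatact

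Neither window holds CGGAA on either strand, so both are in lower case throughout, and neither holds the AP-1 letters TGANTCA, the CRE core TGACG or the E-box CACGTG. Of 32851 promoter windows of the same length, 25.2% hold CGGAA, 6.75% TGANTCA, 17.8% TGACG and 6.02% CACGTG, counting both strands. Both windows have a GC content of 62.4%, against a median of 52.4% over all windows. These letters say nothing about which factors bind there. Windows were found for 5 of the 6 members, all except Spry4, which was therefore not searched.

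The Spred genes differed less between groups than Spry1 and Spry4 did. Spred1 encodes the protein whose human counterpart is lost in Legius syndrome, a disorder of overactive Ras signaling. Its signal (probe set 10474671) was 10.35, 10.50 and 10.21 in water tumors and 10.21, 10.45 and 9.89 in TKI258 tumors. As for Spry2, TKI258 replicate 3 alone lay below the water tumors. The difference was -0.17 ± 0.16 (SE), with a 95% interval from -0.55 to 0.21 (limma adjusted p = 0.773), and it was -0.02 without TKI258 replicate 3, -0.09 without water replicate 2 and -0.30 without TKI258 replicate 2.

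Spred2, a broadly expressed inhibitor of Raf activation by Ras, was 10.38, 10.42 and 10.11 in water tumors and 10.44, 10.37 and 10.09 in TKI258 tumors (probe set 10374464). The groups covered nearly the same range, and replicate 3 was the lowest tumor of each. The difference was 0.00 ± 0.13 (SE), with a 95% interval from -0.32 to 0.31 (limma adjusted p = 0.997). A second Spred2 probe set (10374455) gave -0.03 ± 0.11 (SE). The sign of the Spred2 difference turned under 6 of 14 alternatives.

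Spred3 encodes the member whose KIT-binding domain is not functional. Its signal (probe set 10561673) was 8.31, 8.39 and 8.14 in water tumors and 8.24, 8.29 and 7.71 in TKI258 tumors. TKI258 replicates 1 and 2 lay inside the water range and TKI258 replicate 3 below it. The difference was -0.20 ± 0.17 (SE), with a 95% interval from -0.61 to 0.21 (limma adjusted p = 0.756), and leaving out TKI258 replicate 3 gave -0.01, leaving out TKI258 replicate 2 gave -0.30.

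**Figure D2:**
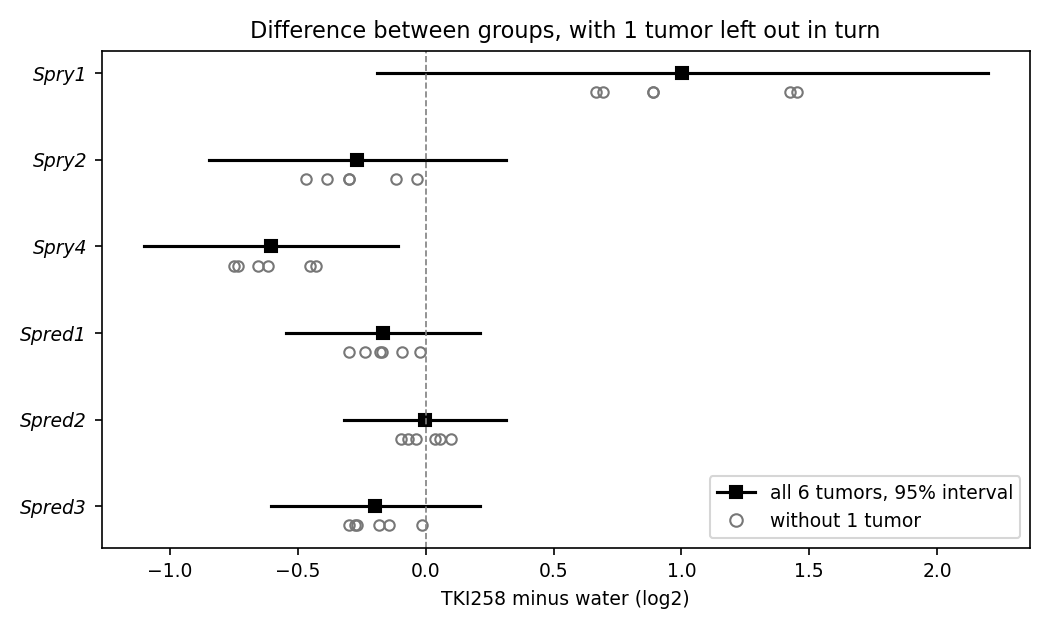
TKI258 minus water in log2 units (horizontal axis) for each member, with the limma estimate and 95% interval over all 6 tumors (black squares and lines) and the estimate with each tumor left out in turn (open circles). The interval of Spry4 lies below 0, those of the other 5 members cross 0, and the estimates of Spry2, Spred1 and Spred3 come close to 0 in 1 case each.

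The windows before Spred1 and Spred2 are shown because, of the 5 members searched, they are those in which the ETS core letters were found. Over all windows 25.2% hold these letters, and Spry4 had no window to search. They lie at chr2:117120821-117121070 and chr11:19924192-19924441 (both plus strand, RefSeq, GRCm38.p6), and capitals mark CGGAA or, for a match on the opposite strand, TTCCG.

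Spred1: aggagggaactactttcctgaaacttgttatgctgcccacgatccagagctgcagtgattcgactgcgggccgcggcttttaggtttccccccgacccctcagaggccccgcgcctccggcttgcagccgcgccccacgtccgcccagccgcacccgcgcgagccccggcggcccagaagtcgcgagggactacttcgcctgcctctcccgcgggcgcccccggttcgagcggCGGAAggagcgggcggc

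Spred2: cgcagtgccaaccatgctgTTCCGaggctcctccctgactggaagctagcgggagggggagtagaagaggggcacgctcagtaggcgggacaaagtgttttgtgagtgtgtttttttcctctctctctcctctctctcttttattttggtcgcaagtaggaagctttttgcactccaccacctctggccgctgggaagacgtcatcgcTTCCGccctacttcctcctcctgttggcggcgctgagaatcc

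Spred1 has 1 match, at position -17 counted from the gene start, and Spred2 has 2, both on the minus strand, at -231 and -42. Spred2 also has 1 match to TGACG, on the minus strand at -51. Spred3 has none of the 4 motifs. The pair with CGGAA letters had differences of -0.17 and 0.00, and Spry1, Spry2 and Spred3, without them, had differences of 1.00, -0.27 and -0.20.

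One tumor set the low end of the family. TKI258 replicate 3 was the lowest of the 6 tumors for 5 of the 6 members, all except Spry1, whereas it was the lowest for 28.2% of all genes. Water replicate 2 was the highest for 4 of 6 (Spry2, Spry4, Spred1 and Spred3), against 18.2% of all genes. These counts were made after the values were seen, and members share the same 6 arrays, so they are not 6 separate observations. Over the 15 pairs of members all Pearson correlations across the 6 tumors were positive, from 0.02 for Spry1 with Spry4 to 0.95 for Spred1 with Spred3. Spearman's rho was -0.257 for Spry1 with Spry4 and positive for the other pairs. Without the 2 tumors farthest from the median of the first gene, r was negative for Spry2 with Spry4 (-0.793), Spred2 (-0.209) and Spred3 (-0.05). It was also negative for Spry4 with Spred1 (-0.205) and Spred2 (-0.03) and for Spred2 with Spred3 (-0.06), and positive for the other pairs. For Spred1 with Spred3 Pearson's r was 0.946 (exact permutation p = 0.00417, adjusted over 15 pairs 0.0625) and Spearman's rho 0.943 (exact permutation p = 0.0167, adjusted 0.25), and r was 0.731 without the 2 tumors farthest from the Spred1 median. Neither measure passed in any of the 15 pairs after adjustment. Spry2 with Spred1 had r = 0.933 (exact permutation p = 0.0139, adjusted 0.0833) and rho = 0.771 (exact permutation p = 0.103, adjusted 0.453), and r fell to 0.589 without the 2 farthest tumors.

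The tumor low in Sprouty and Spred signal also stood apart in its cell type markers. In TKI258 replicate 3 the mean of B cell markers (7 of 8 measured) was 9.16, compared with 5.24 and 5.42 in TKI258 replicates 1 and 2 and 5.06 to 7.11 in water tumors. T cell markers (7 of 7 measured) stood at 8.26, compared with 5.87 and 5.72 in TKI258 replicates 1 and 2 and 5.77 to 6.89 in water tumors. Adipocyte markers (8 of 8) were also highest there, at 8.84, against 7.19 and 7.91 in TKI258 replicates 1 and 2 and 5.95 to 7.09 in water tumors. The adipocyte list also separated the groups: 8 of 8 genes had a higher mean with TKI258, 7 with an unadjusted limma p under 0.05 and 0 passing the adjusted test, and the median difference was 1.56. Tumor epithelium markers (8 of 8) did not move together there: they averaged 9.06, compared with 8.94 and 8.71 in TKI258 replicates 1 and 2 and 8.21 to 8.88 in water tumors. The keratin genes Krt8 (11.55) and Krt18 (11.13) were at their lowest of the 6 tumors. Krt19 (9.07), Epcam (8.03), Cdh1 (7.96) and Cldn7 (6.36) were at their highest, and Krt7 and Cldn4 were at neither end. Between groups, 6 of the 8 epithelium genes had a higher mean with TKI258 (median difference 0.24). At an unadjusted limma p under 0.05, 2 were higher and 1 was lower, and 0 passed the adjusted test. The array of TKI258 replicate 3 correlated at 0.983 and 0.981 with those of TKI258 replicates 1 and 2, which correlated at 0.993 with each other. The part of these cell types in the Sprouty and Spred values was not tested. Without both tumors highest in B cell markers, water replicate 1 and TKI258 replicate 3, the difference was 1.34 for Spry1, -0.44 for Spry4, -0.15 for Spry2, -0.02 for Spred1, 0.14 for Spred2 and 0.00 for Spred3, with limma adjusted p of 0.577 for Spry1 and 0.659 for Spry4.

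The remaining marker lists differed from each other in their order over the tumors. Keratinocyte markers (8 of 8) had means of 7.09 and 6.76 in water replicates 2 and 3 while water replicate 1 stood at 5.0 and the TKI258 tumors between 4.90 and 5.05, a division that none of the members followed. All 8 had a lower mean with TKI258, 7 with an unadjusted limma p under 0.05 and 0 passing the adjusted test (median difference -1.29), and the part of keratinocytes in the members' values was not tested. Endothelial markers (8 of 8) ranged from 7.46 to 7.88 in water and 7.23 to 7.70 in TKI258 tumors, fibroblast markers (8 of 8) from 9.19 to 9.45 and 9.45 to 9.74, and smooth muscle and pericyte markers (6 of 6) from 7.37 to 7.78 and 7.22 to 7.67. Macrophage markers (6 of 6) ranged from 9.81 to 10.51 in water and 9.65 to 9.94 in TKI258 tumors, and skeletal muscle markers (6 of 6) from 6.07 to 7.36 and 6.14 to 6.52. The macrophage mean was lowest in TKI258 replicate 3 and highest in water replicate 2, as were Spry2, Spry4, Spred1 and Spred3. Its order over the tumors was that of Spry2, except that TKI258 replicate 1 and water replicate 1 changed places. TKI258 replicate 3 was the lowest tumor for 4 of 6 macrophage genes, against 28.2% of all genes. With TKI258, 6 of 8 endothelial genes had a lower mean, 2 with an unadjusted limma p under 0.05 (median difference -0.20). Of the fibroblast genes 7 of 8 had a higher mean, 2 at that p (median 0.30). All 6 macrophage and all 6 skeletal muscle genes had a lower mean, 0 at that p (medians -0.27 and -0.275). Smooth muscle and pericyte genes were 3 lower and 3 higher. Adjusted over all probe sets, 0 genes of these lists passed. Water replicate 2, in which Spry2, Spry4, Spred1 and Spred3 were highest, also held the highest macrophage, skeletal muscle, endothelial and keratinocyte means. It held the lowest tumor epithelium, fibroblast, adipocyte and B cell means. The part of these cell types in the result was not tested.

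**Figure D3:**
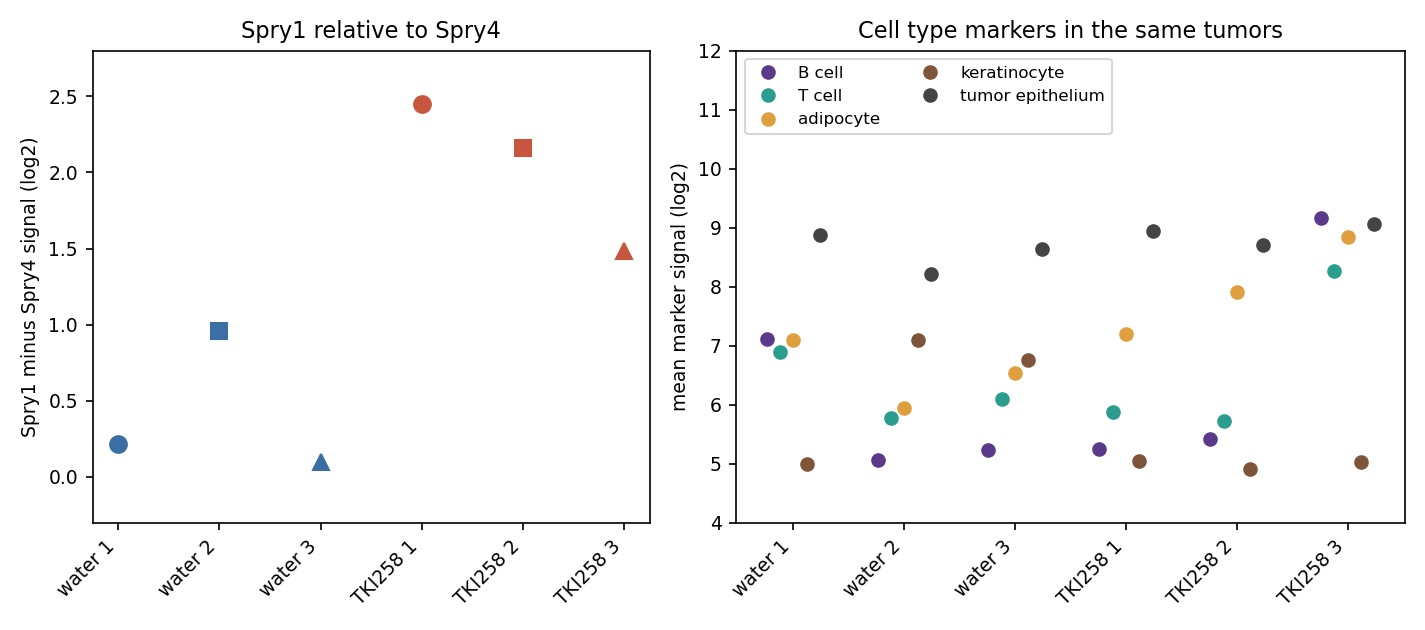
Left, Spry1 minus Spry4 signal within each tumor (log2), with water tumors in blue and TKI258 tumors in red. Right, mean log2 signal of 5 marker lists in the same tumors. The Spry1 minus Spry4 value is at least 1.49 in each TKI258 tumor and at most 0.96 in each water tumor, while B cell and T cell markers are high in TKI258 replicate 3 and, less so, in water replicate 1.

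Genes of the pathway around Sprouty and Spred proteins were counted over whole lists. At the receptors, 5 of 10 genes had a lower and 5 a higher mean, 0 passed adjusted over all probe sets, and 1 in each direction had an unadjusted limma p under 0.05 (median difference -0.02). Egfr, the epidermal growth factor receptor gene, was 7.07, 6.72 and 7.17 in water and 7.81, 7.54 and 7.59 in TKI258 tumors, with every TKI258 tumor higher (0.66 ± 0.14, SE, limma adjusted p = 0.508). Flt1, a receptor gene for vascular endothelial growth factor, differed by -0.37 ± 0.13 and Fgfr2, a fibroblast growth factor receptor gene, by 0.30 ± 0.13. The count of lower receptor genes was 0 without water replicate 1, and that of higher ones was 2 without water replicate 2, water replicate 3 or TKI258 replicate 3. Thus the receptors, like the inhibitors, included genes with differences of either sign.

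Among adaptor genes and the relay from Ras to ERK, 13 of 19 listed genes were measured, 10 with a lower and 3 with a higher mean, and 1 in each direction had an unadjusted limma p under 0.05 (median difference -0.04). Leaving out any single tumor made the lower count 0, and the higher count was 0 without water replicate 2, water replicate 3, TKI258 replicate 1 or TKI258 replicate 3. Araf and Braf, which encode Raf kinases, differed by 0.26 ± 0.10 and 0.16 ± 0.08, and Sos2, which encodes an activator of Ras, by -0.21 ± 0.08. Of the 12 genes for partners of Sprouty and Spred proteins, 6 had lower and 6 higher means, and only Rasa1, an inactivator of Ras, had an unadjusted limma p under 0.05 (limma adjusted p = 0.567). Rasa1 was 10.02, 10.20 and 10.07 in water and 9.77, 9.81 and 9.63 in TKI258 tumors, a difference of -0.36 ± 0.09 without overlap. Cav1, the caveolin gene, differed by -0.41 ± 0.21 and Dyrk1a, a kinase gene, by -0.18 ± 0.12. With TKI258 replicate 1 left out Cav1 differed by -0.24, and with TKI258 replicate 3 left out by -0.60, when it was the second partner gene with an unadjusted limma p under 0.05. Dyrk1a was -0.09 without water replicate 2 and -0.08 when its probe sets were averaged. The neurofibromin gene Nf1, through which Spred proteins act, differed by 0.04 ± 0.09, a value looked up outside the naming rule.

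Over all 6 tumors, other feedback inhibitors and ERK response genes resembled Spry4 more than Spry1 in sign, a likeness that leaned on TKI258 replicate 3. Of 19 genes, all measured, 15 had a lower mean in TKI258 tumors (43.4% of all genes had), with a median difference of -0.13. At an unadjusted limma p under 0.05 there were 4 lower and 0 higher genes, beside 3.35% and 3.79% of all genes. Adjusted over all probe sets, 0 passed. Dusp4, which encodes a phosphatase of ERK, was 9.0, 9.07 and 9.11 in water and 8.79, 8.68 and 8.03 in TKI258 tumors, a difference of -0.56 ± 0.20 without overlap, and of -0.33 without TKI258 replicate 3. Dusp5, another ERK phosphatase gene, differed by -0.26 ± 0.10 and the immediate early gene Fos by -0.45 ± 0.18. The count of 4 was 0 without water replicate 3, 1 without water replicate 2 or TKI258 replicate 3, and 2 without water replicate 1 or TKI258 replicate 2. TKI258 replicate 3 was the lowest of the 6 tumors for 16 of the 19 genes, as for 5 of the 6 Sprouty and Spred genes and 28.2% of all genes. Averaged over the 19 genes its signal was 8.58, below the water tumors (8.96 to 9.09). TKI258 replicates 1 and 2 had 9.0 and 8.99, within the range of the water tumors.

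**Figure D4:**
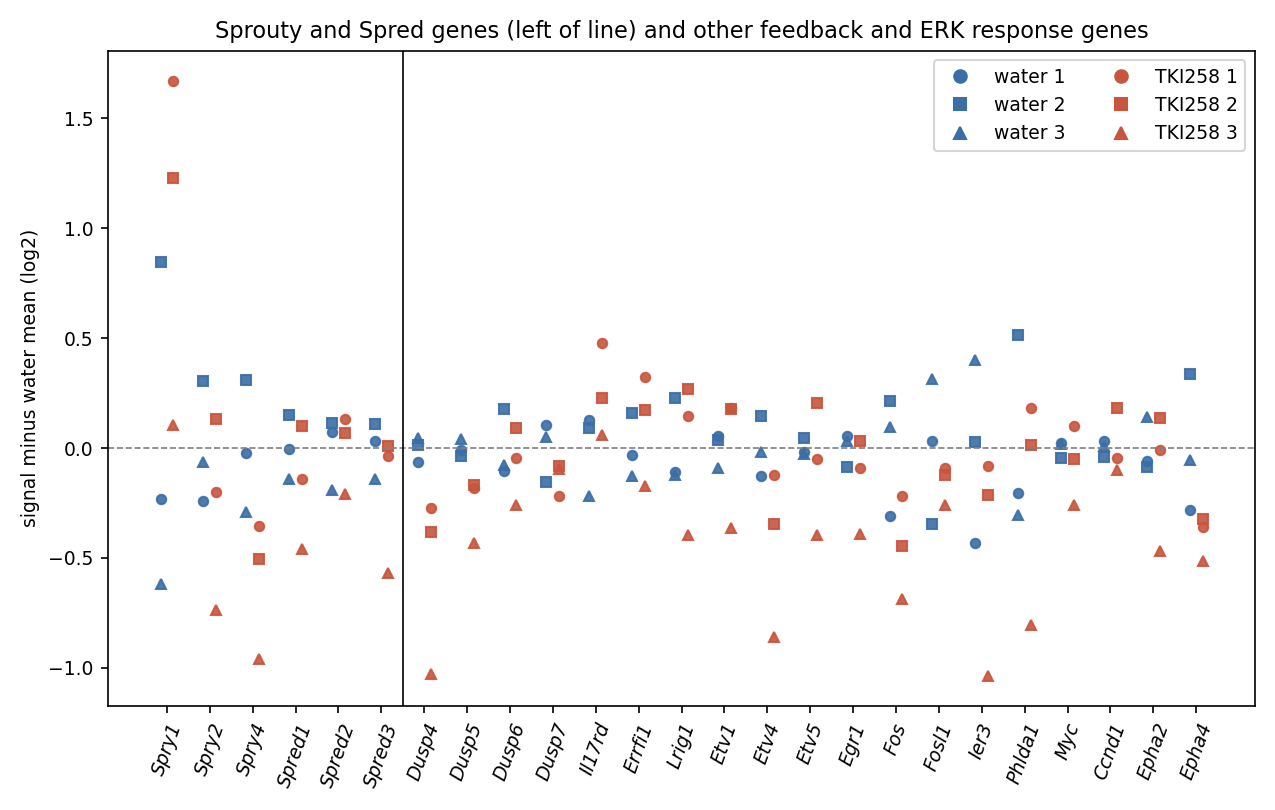
Log2 signal minus the mean of the water tumors (vertical axis) for the 6 Sprouty and Spred genes and 19 other feedback and ERK response genes, with 1 symbol per tumor (water blue, TKI258 red). The triangle of TKI258 replicate 3 is the lowest red symbol for most genes, and Spry1 is the gene with the highest red symbols.

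Spry1 and Spry4 were the members with an SD over the 6 tumors above 0.4, and the genes most like them in profile were taken from 641 other genes above the median of all signals with an SD above 0.4. For Spry1 these were Sulf2, which encodes an enzyme that edits heparan sulfate (Pearson's r = 0.979, Spearman's rho = 0.943), the probe set annotated to the microRNA gene Mir31 (0.975 and 1.00) and Gdpd2 (0.940 and 0.943). Without the 2 tumors farthest from the Spry1 median, r was 0.936, 0.973 and 0.846. Sulf2 was 7.78, 8.69 and 7.48 in water and 9.11, 8.56 and 8.05 in TKI258 tumors, which repeats the order of Spry1 except for water replicate 2 and TKI258 replicate 2. For Spry4 the nearest genes were Ccdc68 (r = 0.974), H1f2, a linker histone gene (r = 0.971), and Mir99ahg, a long noncoding RNA gene (r = 0.969), each with rho = 0.943. These correlations were the highest of many over only 6 tumors and are given as a description, with no test.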

How the data were processed

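Each tumor had 1 Affymetrix Mouse Gene ST array. What was deposited is a log2 signal for each probe set, and RMA, which corrects background, normalizes arrays against each other and summarizes probes, is the authors' method. The submitters' processing notes name RMA, affy and limma, and give neither versions nor a genome build. Of 34760 probe sets, 21640 named 1 gene in the platform annotation, and 19937 genes were represented by their probe set with the highest mean. All 6 members matched the reference gene table by Entrez number. Differences are TKI258 minus water from limma (R 4.3.3, limma 3.58.1; lmFit and eBayes, group as the only term, two-sided), with Benjamini-Hochberg adjustment across every probe set and a threshold of 0.05. The script was tested on simulated data. Members, gene lists and naming rules were chosen with earlier results of these data known: the members, the 3 genes with the smallest p of each of the 4 pathway lists, and the 3 nearest profiles to members with an SD above 0.4. Cell types were followed with 10 marker lists. Alternatives were a filter at the 25th percentile of signal, quantile normalization, median centring, a replicate block, array weights, a robust prior with a trend, averaging the probe sets of each gene, and each tumor left out. The removal of both tumors highest in B cell markers was added after seeing the data. Promoter windows (RefSeq, GRCm38.p6) were searched for 4 motifs. The number of arrays limits the precision.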

Additional observations from a re-analysis of the deposited data

How the results depend on the processing

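The comparison rests on 3 tumors against 3, and no member passed the adjusted threshold under any of the 14 alternatives. Over them the difference ranged from 0.67 to 1.52 for Spry1, -0.75 to -0.41 for Spry4, -0.47 to -0.03 for Spry2 and -0.30 to -0.02 for Spred1, with no change of sign. Spred2 turned to 0.034 with quantile normalization, 0.094 with array weights and 0.14 without both tumors highest in B cell markers, and ranged from -0.10 to 0.10 with single tumors left out. Spred3 turned to 0.0029 without both of those tumors. The number of members with an unadjusted limma p under 0.05 was 2 with the replicate block (Spry4 and Spry1) and 2 with array weights, and 0 to 1 with single tumors left out. Probe sets passing over the whole array numbered 0 to 3 with single tumors left out (3 without water replicate 1) and 1 without both tumors highest in B cell markers. The labels do not say whether same-numbered tumors were paired. Their deviations from the group means correlated at -0.23, 0.19 and 0.01, which with 3 tumors a group cannot exclude pairing. The replicate block gave an SE of 0.31 for Spry1 and 0.13 for Spry4, against 0.50 and 0.21 without it. With the replicate block the adjusted limma p was 0.558 for Spry4 and 0.620 for Spry1. The higher receptor count was 2 with quantile normalization, the replicate block, the robust prior or array weights, and the higher relay count was 2 with quantile normalization or array weights and 0 with the replicate block. For the other feedback inhibitors and ERK response genes the lower count of 4 became 2 with the replicate block, the robust prior or array weights. Their higher count was 1 with array weights. The causes of these shifts were not tested. The 12 other genes named for their p kept their sign throughout, which their choice by smallest p in these same data made likely. Their unadjusted limma p was under 0.05 in 0 of the 14 alternatives for Dyrk1a, 2 for Braf, 3 for Cav1 and 5 for Sos2. For Egfr and Rasa1 it was under 0.05 in all 14, which their choice by smallest p also made likely. Their adjusted limma p was at least 0.328 and 0.417.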

Other observations

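Spry3, the remaining Sprouty gene, was outside the group of members. Its signal was 4.14, 3.95 and 4.12 in water tumors and 4.16, 4.01 and 4.18 in TKI258 tumors, below every array median (6.38 to 6.44), so little could be read from its difference of 0.05 ± 0.10 (SE).

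Mir99ahg, whose profile was among the nearest to Spry4, differed more than Spry4 itself (-1.0 ± 0.39, SE): it was 7.17, 8.20 and 7.05 in water tumors and 6.77, 6.84 and 5.81 in TKI258 tumors, without overlap. Gdpd2, near Spry1 in profile, was 7.40, 7.83 and 6.84 in water tumors and 8.62, 8.40 and 7.93 in TKI258 tumors, also without overlap (0.96 ± 0.28, SE). Both genes were picked for their likeness in these same tumors, so these differences are given as values only.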
